A study of Mus musculus with 6 samples.

Results

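The genes described here encode 45 proteins of homologous recombination, of the Fanconi anaemia pathway and of the break-site signalling that feeds both. They were chosen by gene symbol, and all 45 were found among the 34665 gene rows of the deposited table (Mre11 is listed as Mre11a). RNA was sequenced in bulk from tumours of B16, a mouse melanoma line, in 6 libraries. The RI group (replicates 1, 2 and 4, n = 3) came from tumours treated with radiation and an immune checkpoint inhibitor, and the ICI group (replicates 1, 2 and 3, n = 3) from tumours treated with the inhibitor without radiation. Both groups share the inhibitor, the B16 line and the wild-type genotype that the labels name, so no untreated tumour enters the comparison. The labels name neither the inhibitor, nor the radiation dose and timing, nor the age of the animals, nor whether the harvested tumour was itself irradiated. They also do not tie libraries to animals, and the p-values therefore rest on spread among libraries that may partly be technical.

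Homologous recombination repairs a DNA double-strand break by copying an intact sister chromatid, and is therefore used mainly in S and G2 phase. The break is signalled by MDC1, RNF8, RNF168 and 53BP1, its ends are resected to single strands that RPA coats, and BRCA1, PALB2 and BRCA2 then promote pairing with the sister strand. The Fanconi anaemia pathway handles crosslinks between the DNA strands: a core complex attaches ubiquitin to FANCD2 and FANCI, which hands the lesion to nucleases and then to recombination. Many of these genes are transcribed most in proliferating cells, and ionising radiation is a direct source of the breaks they repair.

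Levels are TMM-normalised CPM (counts scaled to library size), and a gene was called at an adjusted p under 0.05 in edgeR's quasi-likelihood test over all genes, with Benjamini-Hochberg adjustment. Of the 45 genes, 5 fell in RI tumours and 0 rose. They were Brca1, Mdc1, Rnf168, Rad51c and Topbp1, lower by between 1.53-fold and 2.31-fold. The starts of these genes are shown first, because they are the members that passed the threshold, and Brca2 is added as a partner of Brca1 that did not pass. RefSeq windows on GRCm38.p6 run from 250 bases before to 50 bases after the start, 5′ to 3′ on the strand of the gene. Capitals mark E2F-type letters (TTTGGCGC, TTTCCCGC, TTTGCCGC or TTTCGCGC), the CHR letters TTTGAA and the CCAAT box, each on either strand. No stretch matched more than 1 of these motifs in the windows shown. The windows are Brca1 (chr11:101551906-101552205, minus strand), Rad51c (chr11:87404905-87405204, minus strand), Topbp1 (chr9:103305077-103305376, plus strand), Mdc1 (chr17:35841248-35841547, plus strand), Rnf168 (chr16:32277211-32277510, plus strand) and Brca2 (chr5:150522371-150522670, plus strand).
Brca1: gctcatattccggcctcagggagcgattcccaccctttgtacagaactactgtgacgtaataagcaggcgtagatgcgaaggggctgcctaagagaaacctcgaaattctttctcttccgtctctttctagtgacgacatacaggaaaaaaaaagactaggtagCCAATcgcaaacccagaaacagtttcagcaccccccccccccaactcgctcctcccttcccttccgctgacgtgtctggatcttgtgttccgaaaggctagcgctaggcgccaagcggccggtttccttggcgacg
Rad51c: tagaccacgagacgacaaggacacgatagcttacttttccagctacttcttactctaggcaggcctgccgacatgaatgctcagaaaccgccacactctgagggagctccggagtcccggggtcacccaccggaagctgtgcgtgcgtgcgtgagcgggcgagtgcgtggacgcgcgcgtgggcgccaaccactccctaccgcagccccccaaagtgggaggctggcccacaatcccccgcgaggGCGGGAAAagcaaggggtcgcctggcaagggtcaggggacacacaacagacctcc
Topbp1: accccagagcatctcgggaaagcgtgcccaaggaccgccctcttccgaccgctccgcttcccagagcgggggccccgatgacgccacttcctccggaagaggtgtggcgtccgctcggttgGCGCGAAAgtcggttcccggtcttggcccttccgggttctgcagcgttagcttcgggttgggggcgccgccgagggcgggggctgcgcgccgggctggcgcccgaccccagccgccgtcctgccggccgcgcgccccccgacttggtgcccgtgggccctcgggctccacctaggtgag
Mdc1: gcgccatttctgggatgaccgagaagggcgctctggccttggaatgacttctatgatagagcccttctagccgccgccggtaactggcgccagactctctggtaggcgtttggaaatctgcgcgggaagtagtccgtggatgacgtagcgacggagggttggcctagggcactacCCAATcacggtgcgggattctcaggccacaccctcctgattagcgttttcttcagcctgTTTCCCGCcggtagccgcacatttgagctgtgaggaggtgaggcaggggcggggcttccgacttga
Rnf168: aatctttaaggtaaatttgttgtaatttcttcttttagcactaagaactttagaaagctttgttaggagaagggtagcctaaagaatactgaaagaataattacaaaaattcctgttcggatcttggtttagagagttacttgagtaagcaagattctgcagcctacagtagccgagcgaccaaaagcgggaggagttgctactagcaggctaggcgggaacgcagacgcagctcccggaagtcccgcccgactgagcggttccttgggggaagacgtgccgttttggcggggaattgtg
Brca2: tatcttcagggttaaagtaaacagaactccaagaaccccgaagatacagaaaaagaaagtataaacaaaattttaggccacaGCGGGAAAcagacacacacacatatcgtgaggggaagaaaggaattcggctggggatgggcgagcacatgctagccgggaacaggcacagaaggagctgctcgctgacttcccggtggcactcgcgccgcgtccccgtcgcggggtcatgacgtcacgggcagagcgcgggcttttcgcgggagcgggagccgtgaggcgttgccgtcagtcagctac

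Positions give the 5′ end of a match relative to the start. In these windows Mdc1 and Rad51c carry E2F-type letters close to the start, at -16 and -5, Topbp1 carries them at -129, and Brca2, which was not called, at -168. Mdc1 also has a CCAAT box at -75. Brca1 has a CCAAT box at -86 and neither of the other motifs, and Rnf168 has none of the 3. RefSeq windows were matched for 36 of the 45 genes, 4 of them with a pair of starts. E2F-type letters were in 8 of these 36 genes (22.2%), against 2.6% of all 27025 genes with windows. Of the 5 called genes 3 held them, and of the 31 others 5 (Bard1, Brca2, Fancg, Rmi1 and Chek2). The CCAAT box was in 22 of the 36 genes (61.1%) and in 41.1% of all genes, and the CHR letters in 4 of the 36 (11.1%) and in 20.2% of all genes. The 27025 genes were not limited to those tested here, whereas all 36 passed the low-count filter. The matches are letters found in a window, and binding was not measured.

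The 5 falls stand against 4.72% of all 16924 tested genes called lower and 4.46% called higher. All 45 genes passed the low-count filter, with between 48 and 8535 counts in a library. At an unadjusted p under 0.05, 14 of the 45 were lower and 0 higher in edgeR, where 15.8% and 15.7% of all tested genes were. DESeq2 called 10 lower and 0 higher, against 8.42% and 8.28% of the 18507 genes it tested, and limma-voom 4 lower and 0 higher, against 4.56% and 4.35% of all tested genes. The RI libraries all lay below the ICI libraries for 18 of the 45 genes and all above them for 2, against 19.4% and 17.8% of all tested genes. The median log2 fold change (RI minus ICI) of the 45 genes was -0.31, and 32 of them (71.1%) had a value below 0. Over all tested genes the median was 0.01 and 49.0% lay below 0. In bulk RNA, fewer cells that express a gene and less of its RNA per cell cannot be told apart. No gene of the 45 was called in edgeR without ICI replicate 1, ICI replicate 3, RI replicate 2 or RI replicate 4, with 14, 9, 12 and 10 lower and 0 higher at an unadjusted p under 0.05. In those fits 10.5%, 12.7%, 11.5% and 12.2% of all tested genes were lower at that p. Over all genes the same fits called 0, 0, 0 and 16 lower and 0, 2, 0 and 81 higher. Without ICI replicate 2 the test called 3 of the 45 lower, beside 291 of all 17388 tested genes lower (1.67%) and 234 higher. Without RI replicate 1 it called 7 lower and 1 higher, beside 1545 of all 17551 tested genes lower (8.8%) and 1564 higher.

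**Figure D1:**
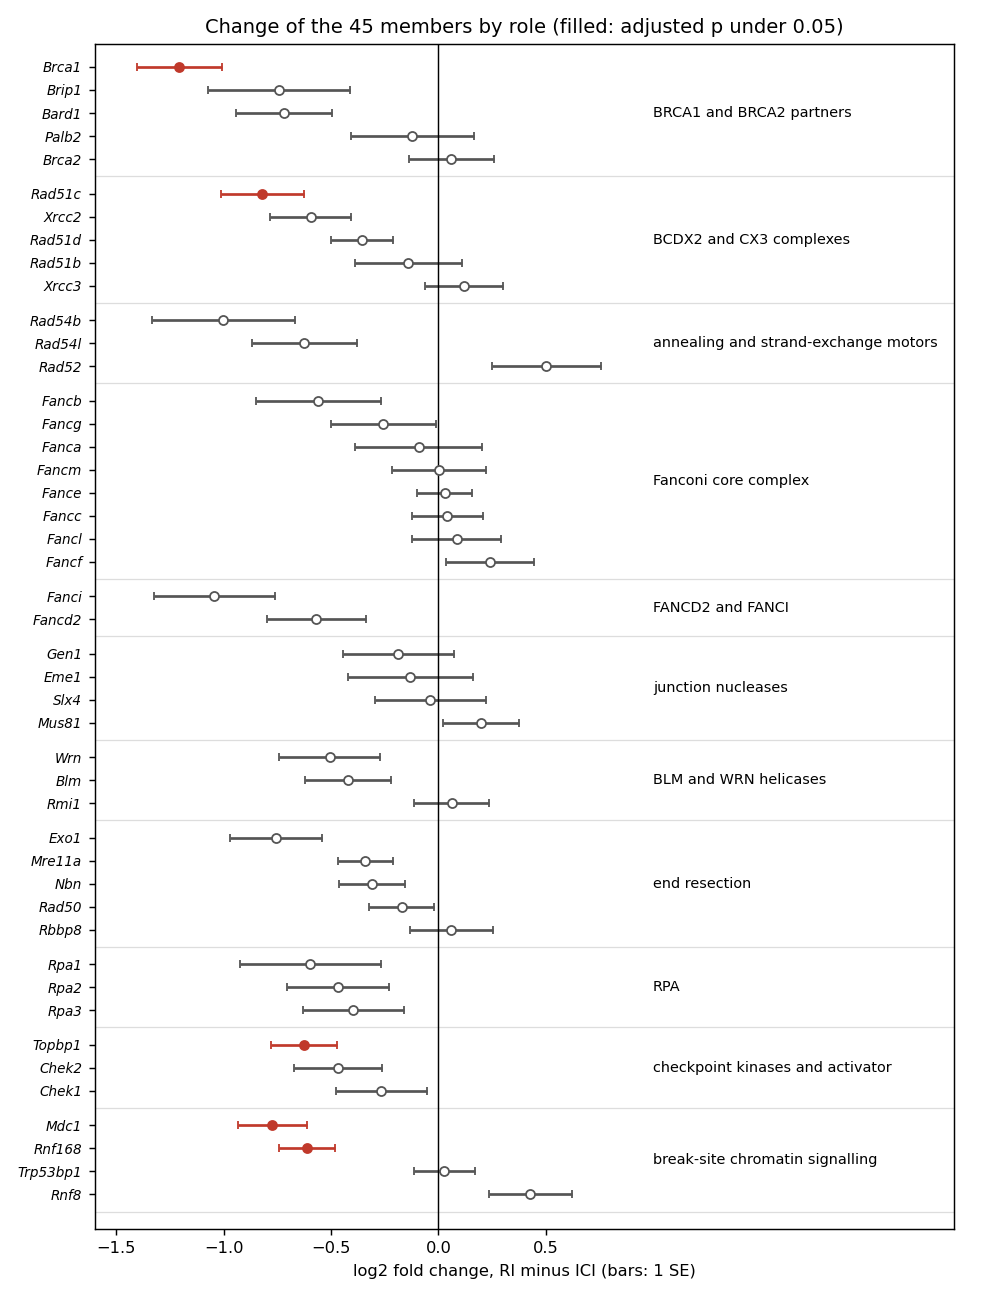
Log2 fold change (RI minus ICI) of each of the 45 genes with 1 SE, grouped by the role of the protein; filled points passed the adjusted p threshold of 0.05 in edgeR. The 5 filled points all lie left of 0, the 3 RPA subunits and FANCD2 with FANCI lie left of 0 without passing, and the Fanconi core complex lies on either side of it.

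Among the BRCA1 and BRCA2 partners, Brca1 fell and the other 4 did not pass. Brca1 (ENSMUSG00000017146, chromosome 11, 101488764 to 101551955 on GRCm38, minus strand) encodes the ubiquitin ligase that directs breaks towards recombination. It was at 44.2, 34.7 and 40.5 CPM in RI replicates 1, 2 and 4, against 104.7, 66.2 and 104.4 CPM in ICI replicates 1, 2 and 3. Every RI library lay below the lowest ICI library, ICI replicate 2, which stood well under the other ICI libraries. The means were 39.8 ± 4.77 CPM in RI and 91.8 ± 22.1 CPM in ICI (SD, n = 3 each), a 2.31-fold fall (log2 fold change -1.21, SE 0.20, edgeR adjusted p = 0.0264). Brca1 had the lowest p of the 45 genes. It was the single one still called after a correction for transcript length and GC content (adjusted p = 0.0342) and with the replicate number as a block (adjusted p = 0.0229). Those fits called 2.06% and 1.45% of all tested genes lower. Replicate 3 is in ICI alone and replicate 4 in RI alone, so with the block the group difference rests on replicates 1 and 2.

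BARD1 is the partner that BRCA1 needs for its ligase activity. Bard1 was at 8.73, 10.8 and 8.401 CPM in RI and 14.0, 12.4 and 19.6 CPM in ICI. Its libraries did not overlap between groups either, but it did not pass in edgeR (log2 fold change -0.72, SE 0.22, adjusted p = 0.0739) and was called by DESeq2 (adjusted p = 0.0267). Brca2, a mediator of strand pairing, averaged 21.0 ± 3.12 CPM in RI and 20.1 ± 4.16 CPM in ICI (adjusted p = 0.857), and Palb2, the bridge between BRCA1 and BRCA2, 4.17 ± 0.824 and 4.54 ± 1.14 CPM (adjusted p = 0.797). Brip1, the FANCJ helicase that binds BRCA1, was at 17.9, 9.98 and 8.21 CPM in RI against 21.8, 13.8 and 24.8 CPM in ICI. RI replicate 1 stood among the ICI libraries for Brip1, and without it the gene was called lower (log2 fold change -1.14, adjusted p = 0.0318, against -0.74 and 0.169 with it).

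**Figure D2:**
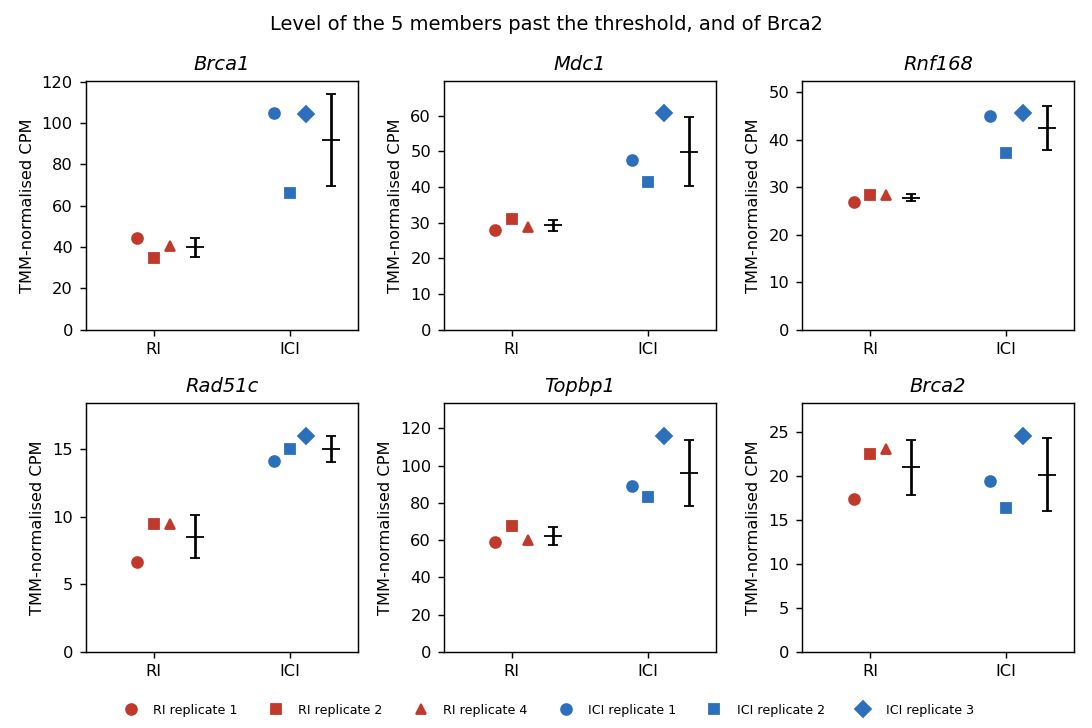
Level in TMM-normalised CPM of the 5 genes that passed the threshold and of Brca2, 1 point per library, with the group mean and SD (n = 3 each) as a black bar. RI libraries of the 5 genes all lie under the ICI libraries, whereas those of Brca2 (17.4 to 23.1 CPM) lie among the ICI values (16.4 to 24.6 CPM).

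The BCDX2 and CX3 complexes (Rad51b, Rad51c, Rad51d, Xrcc2 and Xrcc3) assist strand pairing in recombination, and 1 of their 5 genes fell. Rad51c (ENSMUSG00000007646, chromosome 11, 87376645 to 87404954) belongs to both complexes. It had 6.67, 9.44 and 9.47 CPM in RI, against 14.1, 15.02 and 16.02 CPM in ICI. All ICI libraries lay close together and above every RI library, and RI replicate 1 was the lowest. The fall was 1.77-fold (log2 fold change -0.82, SE 0.19, adjusted p = 0.0428). Xrcc2 (11.7 ± 1.05 CPM in RI, 17.6 ± 3.43 CPM in ICI, adjusted p = 0.0795) and Rad51d (19.95 ± 1.58 and 25.5 ± 2.59 CPM, adjusted p = 0.140) had no overlap between the groups and did not pass in edgeR. DESeq2 called Xrcc2 (adjusted p = 0.0413). Rad51b was at 3.14 ± 0.211 CPM in RI and 3.46 ± 0.436 CPM in ICI. Xrcc3, which pairs with RAD51C, was at 29.1, 35.5 and 30.7 CPM in RI and 25.4, 25.4 and 36.7 CPM in ICI, so that ICI replicate 3 lay above and the other ICI libraries below the RI values (adjusted p = 0.674).

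No annealing factor or strand-exchange motor was called in edgeR, and the members pointed different ways. Rad54b, a DNA translocase, was at 5.64, 5.27 and 3.55 CPM in RI against 7.59, 7.05 and 14.4 CPM in ICI. ICI replicate 3 held about as much as the other ICI libraries together, and the gene did not pass (2.00-fold lower, SE of the log2 fold change 0.33, edgeR adjusted p = 0.0880), although DESeq2 called it (adjusted p = 0.0219). Exons of Fsbp on the same strand share 35.8% of the exon bases of Rad54b, so counts of this pair are uncertain. Rad54l, the other motor, averaged 9.29 ± 1.69 CPM in RI and 14.3 ± 3.99 CPM in ICI (adjusted p = 0.126). It shares 15.4% of its exon bases with Lrrc41 on the opposite strand, which was itself called lower (11.8 CPM in RI and 21.4 CPM in ICI, adjusted p = 0.0319). Rad52, which anneals single strands, had the highest log2 fold change of the 45 genes at 0.50 (SE 0.25, adjusted p = 0.212). Its level was 22.2, 45.3 and 38.7 CPM in RI and 22.0, 28.5 and 24.4 CPM in ICI. RI replicate 1 lay at the ICI level, and without it Rad52 was called higher (log2 fold change 0.75, adjusted p = 0.0216).

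The 8 genes of the Fanconi core complex had a median log2 fold change of 0.02, and 0 of them were called in edgeR, DESeq2 or limma-voom, with 0 at an unadjusted p under 0.05 in edgeR. Fance, which joins the core complex to FANCD2, was at 32.0, 30.4 and 30.2 CPM in RI and 29.4, 33.3 and 28.0 CPM in ICI. Those values interleave (log2 fold change 0.03, SE 0.13). Fancb, a scaffold of the ligase module, had the largest absolute log2 fold change of the complex at -0.56 (SE 0.29, adjusted p = 0.224), with 1.92, 2.55 and 2.24 CPM in RI and 2.85, 2.89 and 4.14 CPM in ICI. Fancl, the ubiquitin ligase itself, averaged 7.54 ± 0.681 CPM in RI and 7.11 ± 1.08 CPM in ICI. Fancm, the translocase that brings the complex to DNA, averaged 16.9 ± 4.11 and 16.8 ± 2.70 CPM. Fancf, an adaptor, lay higher in every RI library (6.58 to 7.31 CPM) than in any ICI library (5.11 to 6.30 CPM) without passing (adjusted p = 0.441). Fanca, Fancc and Fancg overlapped between the groups, with adjusted p between 0.493 and 0.884.

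FANCD2 and FANCI, the pair that the core complex modifies, both had RI libraries below all ICI libraries and neither passed in edgeR. Fanci was at 5.96, 4.57 and 5.23 CPM in RI, against 10.1, 7.499 and 14.9 CPM in ICI. The log2 fold change was -1.04 (SE 0.28, adjusted p = 0.0550), the second lowest of the 45 after Brca1. Without RI replicate 1 it was -1.15 and the gene was called (edgeR adjusted p = 0.0447), as it was by DESeq2 with all libraries (adjusted p = 0.00609). Fancd2 was at 25.8, 23.7 and 21.9 CPM in RI and 31.1, 26.1 and 48.6 CPM in ICI, with ICI replicate 3 far above the rest (log2 fold change -0.57, SE 0.23, adjusted p = 0.136). Polg on the opposite strand shares 15.95% of the exon bases of Fanci, and the strand setting of the counting is not given. Opposite-strand overlaps also touch Fancc (16.4% with Gm16133), Trp53bp1 (15.04% with Tubgcp4), Fancf (14.96% with Gas2), Fancl (13.7% with Vrk2), Fanca (10.5% with Zfp276) and Eme1 (8.001% with Lrrc59, which was called lower), so these counts are uncertain too.

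The junction nucleases cut crosslinks and Holliday junctions, and 0 of the 4 were called in edgeR, DESeq2 or limma-voom. Slx4, the scaffold that holds these nucleases, was at 19.8, 42.6 and 29.4 CPM in RI and 32.1, 28.0 and 34.4 CPM in ICI, so that the RI libraries spanned the whole ICI range. Mus81, a catalytic subunit, was at 15.3, 20.6 and 16.9 CPM in RI and 15.96, 16.8 and 13.4 CPM in ICI (log2 fold change 0.20, SE 0.18). Its partner Eme1 and the resolvase Gen1 had log2 fold changes of -0.13 (SE 0.29) and -0.19 (SE 0.26). RI replicate 2 was the highest RI library for each of these 4 genes.

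The helicases that unwind or dissolve recombination intermediates were not called in edgeR, DESeq2 or limma-voom. Wrn, a helicase with an exonuclease domain, was at 7.02, 10.6 and 10.2 CPM in RI and 16.5, 11.4 and 11.7 CPM in ICI (log2 fold change -0.51, SE 0.24, adjusted p = 0.181). Blm, which dissolves double Holliday junctions, averaged 13.5 ± 1.01 CPM in RI and 18.1 ± 4.39 CPM in ICI (adjusted p = 0.193). For Blm and Wrn the groups did not overlap. Rmi1, the partner of BLM, was at 14.5, 19.8 and 19.2 CPM in RI and 17.0, 15.5 and 18.8 CPM in ICI. A stretch covering 43.95% of the Rmi1 transcript is nearly identical to the pseudogene Gm20775, so its count is uncertain.

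End resection genes were not called in edgeR, and 3 of the 5 had no overlap between groups. Exo1, the exonuclease of long-range resection, was at 15.6, 16.9 and 13.5 CPM in RI against 25.4, 19.2 and 33.2 CPM in ICI. The ICI libraries were spread over a wide range above the tight RI libraries (log2 fold change -0.76, SE 0.22, edgeR adjusted p = 0.0616), and DESeq2 called the gene (adjusted p = 0.0156). Of the subunits of the MRN complex, which senses the break and starts resection, Mre11a averaged 25.5 ± 0.794 CPM in RI and 32.2 ± 2.86 CPM in ICI (adjusted p = 0.119) and Nbn 19.95 ± 2.23 and 24.7 ± 2.51 CPM (adjusted p = 0.203). Rad50, the third subunit, was at 39.1, 54.7 and 52.2 CPM in RI and 58.1, 52.9 and 53.5 CPM in ICI, where RI replicate 1 alone stood low (adjusted p = 0.457). Rbbp8, which encodes the resection cofactor CtIP, averaged 21.1 ± 3.39 CPM in RI and 20.2 ± 3.71 CPM in ICI.

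RPA is the 3-subunit complex that coats single-stranded DNA, and the 3 genes had the highest levels per transcript length of all 45 in both groups. Per kilobase of the longest transcript, Rpa3, Rpa1 and Rpa2 averaged 43.1, 19.3 and 17.6 CPM in RI and 56.7, 29.1 and 24.2 CPM in ICI. Rpa1 was at 150.4, 71.2 and 72.2 CPM in RI and 156, 109 and 178.5 CPM in ICI. RI replicate 1 lay inside the ICI range at more than the sum of the other RI libraries, and without it the gene was called lower (log2 fold change -1.05, adjusted p = 0.0224, against -0.60 and 0.250 with it). Rpa2 averaged 31.8 ± 7.67 CPM in RI and 43.9 ± 11.5 CPM in ICI, and Rpa3 29.4 ± 7.78 and 38.7 ± 7.92 CPM. In RI replicate 1 Rpa3 was at its lowest level of the 6 libraries (20.5 CPM), while Rpa1 and Rpa2 were at their highest among RI libraries.

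Of the checkpoint genes Topbp1 fell, and the effector kinases did not pass. TOPBP1 activates the kinase ATR at single-stranded DNA. Topbp1 (ENSMUSG00000032555, chromosome 9, 103305215 to 103350428) was at 58.7, 67.7 and 60.1 CPM in RI, against 88.9, 83.1 and 116 CPM in ICI. The groups were separated by a gap wider than the spread of the RI libraries (1.55-fold lower, log2 fold change -0.63, SE 0.15, adjusted p = 0.0454). Chek2, the kinase downstream of ATM, averaged 14.0 ± 3.32 CPM in RI and 19.4 ± 1.73 CPM in ICI (adjusted p = 0.164). Chek1, the kinase downstream of ATR, averaged 21.0 ± 4.58 CPM in RI and 25.2 ± 4.82 CPM in ICI (adjusted p = 0.412).

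At break-site chromatin, 2 of 4 genes fell. Mdc1 (ENSMUSG00000061607, chromosome 17, 35841515 to 35859670) encodes the adaptor that binds phosphorylated H2AX. It was at 28.1, 30.9 and 28.7 CPM in RI against 47.7, 41.5 and 60.6 CPM in ICI, 1.71-fold lower (log2 fold change -0.77, SE 0.16, adjusted p = 0.0350). Rnf168 (ENSMUSG00000014074, chromosome 16, 32277459 to 32301434) encodes the ligase that marks H2A with ubiquitin to recruit 53BP1. Its level was 26.9, 28.3 and 28.3 CPM in RI against 44.9, 37.2 and 45.5 CPM in ICI, 1.53-fold lower (log2 fold change -0.61, SE 0.13, adjusted p = 0.0371). For both genes the RI libraries lay close together and under every ICI library. Rnf8, the ligase that acts between MDC1 and RNF168, lay above every ICI library in RI, at 9.79, 12.9 and 11.4 CPM against 8.08, 7.75 and 9.55 CPM, and did not pass (log2 fold change 0.43, SE 0.19, adjusted p = 0.169). Trp53bp1, which encodes 53BP1, was at 34.5, 44.0 and 46.5 CPM in RI and 41.2, 40.6 and 40.8 CPM in ICI, with the ICI libraries almost equal and the RI libraries on either side of them.

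ICI replicate 3 and RI replicate 1 stood at the extremes for many of the 45 genes. ICI replicate 3 held the highest value of 30 genes (66.7%), against 18.0% of all tested genes, and RI replicate 1 the lowest value of 23 (51.1%), against 22.1% of all tested genes. The mean deviation from each gene's average log2(CPM + 0.5) was -0.27, -0.01 and -0.16 in RI replicates 1, 2 and 4, and 0.11, -0.03 and 0.37 in ICI replicates 1, 2 and 3. RI replicate 2 and ICI replicate 2 thus lay close together on this measure, and their summed levels were 1008 and 1060 CPM. FANCD2 and FANCI stood at -0.22 to -0.45 in RI and at 0.86 in ICI replicate 3, while the junction nucleases were highest in RI replicate 2 (0.37).

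**Figure D3:**
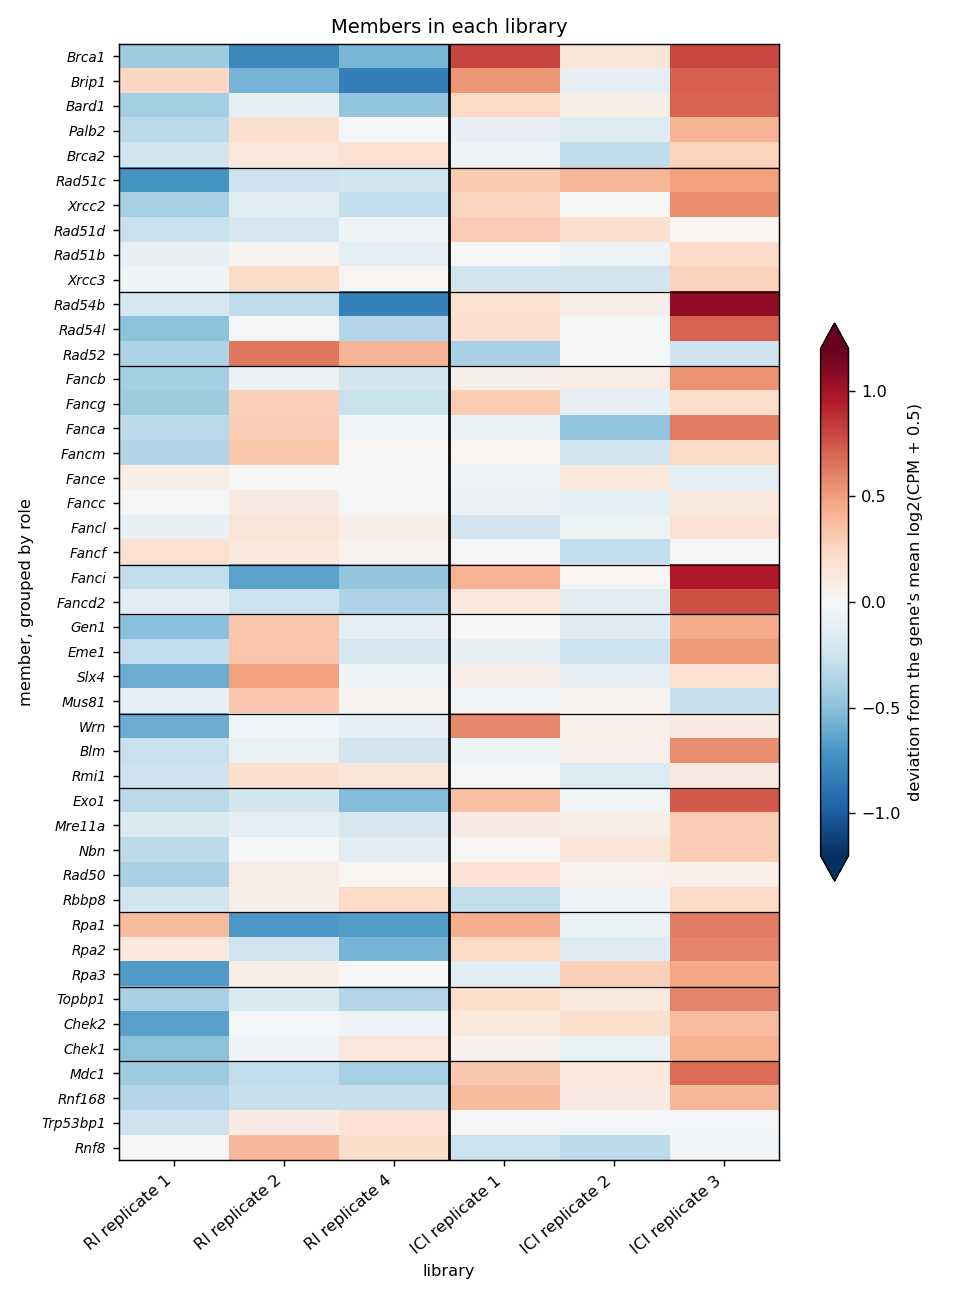
Deviation of each gene from its own mean log2(CPM + 0.5) in the 6 libraries, RI left of the line and ICI right of it, with genes grouped by role. The column of ICI replicate 3 is red in most rows (highest library for 30 of 45 genes) and that of RI replicate 1 blue (lowest library for 23 of 45).

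As a sum, proliferation markers were also lower in RI, but not each of them. Of 15 such markers 3 fell (Top2a, Mcm2 and Mcm4) and 0 rose, against 4.72% and 4.46% of all tested genes. Their median log2 fold change was -0.62. Mki67 (-0.07, edgeR adjusted p = 0.888) and Cdk1 (0.03, adjusted p = 0.952) overlapped between the groups, as did Mcm7, Tyms and Birc5. The summed level of the 15 markers was 1344 to 1563 CPM in RI against 1806 to 2849 CPM in ICI. The highest of these sums was in ICI replicate 3, as for the repair genes, but the lowest was in RI replicate 4 and not in RI replicate 1. The summed level of the 45 genes was 918, 1008 and 929.8 CPM in RI replicates 1, 2 and 4, and 1212, 1060 and 1431 CPM in ICI replicates 1, 2 and 3. Set against the proliferation sum, a ratio chosen after the values were seen, that came to 59.3%, 64.5% and 69.2% in RI and 62.5%, 58.7% and 50.2% in ICI, so the groups overlapped. Of the 5 called genes Brca1 alone stayed apart on this scale, at 2.85%, 2.22% and 3.01% in RI against 5.40%, 3.67% and 3.66% in ICI, while Mdc1, Rnf168, Rad51c and Topbp1 overlapped. The sum weights each marker by its CPM. Mki67 (204 CPM in RI, 214.5 CPM in ICI) thus counts more than Mcm4 (34.2 and 70.4 CPM), which fell 2.06-fold. Ratios to single markers were not taken, so the place of Brca1 holds for this sum alone. The part of proliferation in the falls was not tested.

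**Figure D4:**
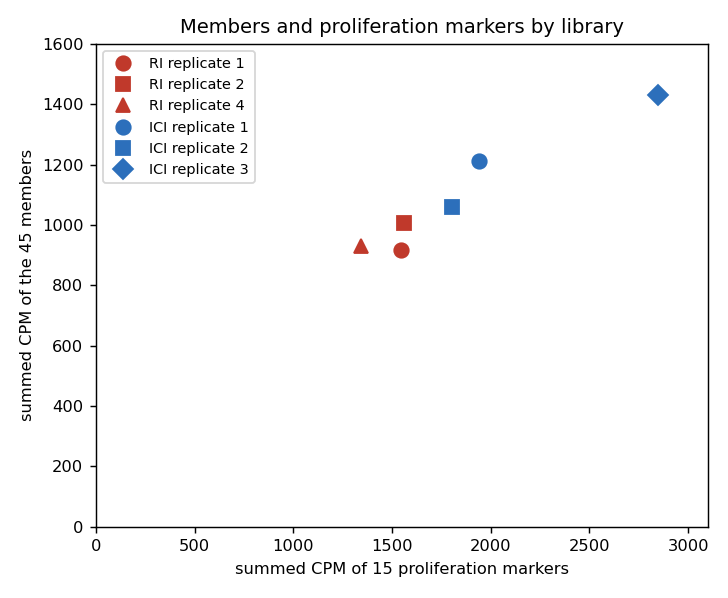
Summed CPM of the 45 genes (vertical) against the summed CPM of 15 proliferation markers (horizontal), 1 point per library. The RI libraries (1344 to 1563 CPM of markers) lie at the lower left of the ICI libraries (1806 to 2849 CPM), and ICI replicate 3 lies highest on both axes.

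Transcript length also moved with the fold change. The 45 genes have long transcripts, with a median of 4460 bases against 2964 over all tested genes. The median log2 fold change of tested genes was 0.37 in the shortest decile of transcripts and -0.26 in the longest. The median of the genes described here lay below that of all tested genes in each of the 9 deciles that held any of them. Those deciles held from 1 (Rpa3, in the shortest) to 11 of the genes, so some of these medians rest on very few. After a per-library correction for length and GC content their median was -0.28, against -0.04 over all tested genes. In that fit 1 of the 45 was called lower (Brca1) and 0 higher. Of all 16924 tested genes 349 were called lower (2.06%) and 261 higher, so the 1 call is near the background share. At an unadjusted p under 0.05, 12 of the 45 were lower and 1 higher, where 15.5% and 11.7% of all tested genes were. Mdc1, Rnf168, Rad51c and Topbp1 then had adjusted p = 0.0568, 0.0728, 0.0805 and 0.0902, with log2 fold changes of -0.64, -0.45, -0.69 and -0.48.

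**Figure D5:**
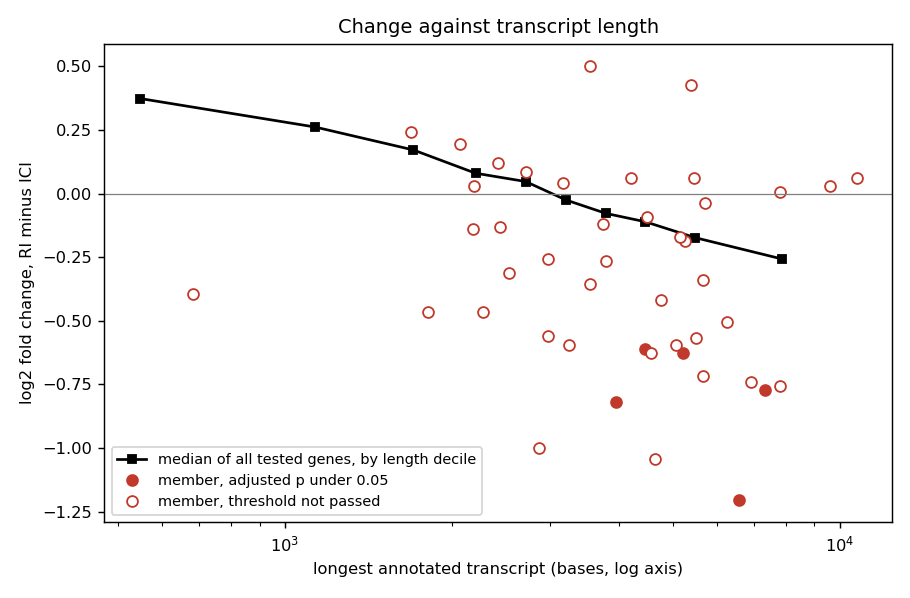
Log2 fold change (RI minus ICI) against the longest annotated transcript on a log axis, for the 45 genes (circles, filled where adjusted p was under 0.05) and as the median of all tested genes by length decile (line). The line runs from 0.37 in the shortest decile to -0.26 in the longest, and the 5 filled circles lie under it.

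The libraries held 22543721 to 45624013 counts in RI and 32201558 to 43109047 in ICI. Mitochondrially encoded genes took 11.5% to 14.7% of counts in RI and 4.38% to 5.01% in ICI, and counts reached 29748 rows in RI replicate 1 but 22763 to 24891 rows elsewhere. Without the mitochondrially encoded genes the calls among the 45 stood at 5 lower and 0 higher. The melanocyte lineage was present, with counts for 10 of 10 markers and a summed level of 11000 to 15620 CPM in RI and 14420 to 16430 CPM in ICI, and 1 of them, Mlana, was called higher. Of the markers of other cells, none was at 0 in all libraries, and 2 of 6 adipocyte and 2 of 4 Schwann cell and nerve markers were called higher and 0 lower. The adipocyte markers summed to 145.5 to 255 CPM in RI and 39.7 to 79.6 CPM in ICI, and the nerve markers to 952 to 1226 and 742 to 769 CPM. Of 10 leukocyte, 8 fibroblast, 5 endothelial, 6 skeletal muscle and 4 erythroid markers 0 were called in edgeR. Their sums were 12.6 to 44.0 CPM in RI and 32.2 to 81.5 CPM in ICI for leukocytes, 378 to 767 and 131 to 754 CPM for fibroblasts, and 30.1 to 157 and 50.9 to 133 CPM for endothelium. Skeletal muscle markers summed to 16.8 to 2154 CPM in RI and 2.49 to 208 CPM in ICI, and erythroid markers to 64.1 to 261 and 134.5 to 2678 CPM. The highest muscle sum was in RI replicate 1 and the highest erythroid sum in ICI replicate 3, the libraries at the extremes for the repair genes. The part of these cells in the falls of the repair genes was not tested.

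Other genes of the same pathways made a list of 71 outside the 45. Of these 8 fell (11.3%), 3 rose and 60 did not pass, with a median log2 fold change of -0.12. Over all tested genes 4.72% were called lower and 4.46% higher, so the 3 that rose are close to the background share. The deubiquitinase of FANCD2 was lower in both its parts. Usp1, its catalytic subunit, was at 51.5, 35.1 and 35.9 CPM in RI against 77.6, 73.3 and 94.1 CPM in ICI (2.00-fold lower, adjusted p = 0.0292), and Wdr48, its cofactor, at 34.0, 34.5 and 37.2 CPM against 51.5, 51.1 and 51.6 CPM (1.46-fold lower, adjusted p = 0.0346). Rmi2, which binds RMI1 and BLM, was at 4.61, 4.80 and 5.46 CPM in RI against 10.3, 10.7 and 13.2 CPM in ICI (2.30-fold lower, adjusted p = 0.0266).

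Rif1, an effector of 53BP1 that limits resection, fell 1.68-fold (35.0 ± 2.82 CPM in RI, 58.7 ± 5.69 CPM in ICI, adjusted p = 0.0282). Spidr, a scaffold that binds BLM, fell 2.48-fold, Rad1, a subunit of the checkpoint clamp, 1.80-fold, Recql, a RecQ helicase, 1.72-fold and Rfwd3, a ubiquitin ligase for RPA, 1.62-fold, with adjusted p between 0.0340 and 0.0394. The genes that rose were Zswim7, a recombination factor (22.8 ± 2.17 CPM in RI and 10.8 ± 1.77 CPM in ICI, 2.12-fold, adjusted p = 0.0263), Eme2, a partner of MUS81 (7.51 ± 1.10 and 3.28 ± 0.638 CPM, 2.29-fold, adjusted p = 0.0357) and Slx1b, the nuclease held by SLX4 (14.6 ± 3.00 and 7.63 ± 1.65 CPM, 1.91-fold, adjusted p = 0.0479). Exons of Recql (37.7% with Pyroxd1) and of Eme2 (28.2% with Spsb3 and 25.95% with Mapk8ip3) overlap other genes. To a lesser extent so do those of Wdr48 (14.9% with Gorasp1), Slx1b (10.2% with Bola2) and Spidr (8.08% with Cebpd). The counts of all these genes are uncertain. After the length and GC correction 2 of the 71 were called lower (Rmi2 and Usp1) and 2 higher (Zswim7 and Eme2). That fit called 349 of all 16924 tested genes lower (2.06%) and 261 higher, so both counts are close to the background share. None of the 71 was called without ICI replicate 1, ICI replicate 3, RI replicate 2 or RI replicate 4 in edgeR. Over all genes those fits called 0 to 16 lower and 0 to 81 higher.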

How the data were processed

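RNA was sequenced in 3 RI and 3 ICI tumour libraries. The deposited table holds raw counts, as whole numbers, for 34665 gene rows. Per the submitters' processing notes HISAT2 was used with GRCm38 and mm10. Which tool counted the reads, with which annotation, strand setting and versions, is not given in these sources. Totals ranged from 22543721 to 45624013 counts, and no pair of libraries agreed within sampling noise (chi-square per degree of freedom at least 40.0).

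Counts were fitted with edgeR 4.0.16 in R 4.3.3: filterByExpr (16924 genes), TMM, robust quasi-likelihood test of RI minus ICI, Benjamini-Hochberg adjustment over all tested genes, threshold 0.05. SE came from the coefficient and F statistic. Alternatives used DESeq2 1.42.0, limma 3.58.1, other scalings and filters, the replicate block, leaving out each library, and splines (5 degrees of freedom each) for transcript length and GC content. Positions, lengths and exon overlaps came from GENCODE M21 on GRCm38. Near-identical stretches (at least 200 bases at 95% identity) came from blastn 2.17.0, and promoters from RefSeq on GRCm38.p6.

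Genes named were all called members and, per role, those with the largest absolute change and the highest mean level, with called genes of the related list. The 45 members, the lists and the tests were chosen with earlier results of these data known. Per-library values of Bard1, Brip1 and Rnf8, and the Brca2 promoter, were added after their values were seen. The values of 1 related gene are not reported here.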

Additional observations from a re-analysis of the deposited data

How the results depend on the processing

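The direction of Brca1, Mdc1, Rnf168, Rad51c and Topbp1 stayed below 0 in all 16 alternatives, which the separation of the groups largely fixes, but their calls did not. The 45 genes gave 5 calls lower and 0 higher, 10 lower with DESeq2 or with no filter on low counts, and 1 lower with the replicate block or the length and GC correction. Leaving out 1 library gave 0 to 7 lower and 0 to 1 higher. Over those fits the calls over all genes, 754 higher and 799 lower, ranged from 0 to 1564 and from 0 to 1545, and those of the 71 related genes, 3 higher and 8 lower, from 0 to 5 and from 0 to 10. Over all genes, upper-quartile scaling called 1046 higher and 497 lower (67.8% of calls higher, against 48.6%), no filter 1507 lower, DESeq2 1532 higher and 1559 lower, the replicate block 400 and 245, and the length and GC correction 261 and 349. Of the related genes the replicate block called 0 higher and 0 lower in edgeR (3 and 8 without it), and the length and GC correction 2 lower. In the fit with the replicate block the group difference rests on replicates 1 and 2, because replicates 3 and 4 each occur in 1 group. The cause of these shifts was not tested. None of the 5 called members changed direction. Up to 8 of the 45, none called, changed sign in a single alternative. The groups share the replicate numbers 1 and 2, whose libraries deviated from their group means with correlations of 0.35 and 0.09. Between libraries with different numbers the correlations ran from -0.32 to 0.27. These values do not settle whether the numbers mark pairs. The labels name no pairs, so the numbers were not taken as pairs. The median log2 fold change of the 45 genes ran from -0.38 to -0.19, beside medians of all fitted genes of -0.04 to 0.28. The highest was with DESeq2, where it was taken over all rows with counts, also those without an adjusted p. The next was with no filter on low counts (0.23). Precision is limited by 3 libraries a group, with a median SE of 0.21 (log2) over the 45 genes.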

Other observations

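Several of the 45 genes start head to head with a neighbour, within 1000 bases on the opposite strand. Brca1 and Nbr1, an autophagy receptor gene, start 194 bases apart. Nbr1 was at 116 CPM in RI and 123 CPM in ICI (log2 fold change -0.08, edgeR adjusted p = 0.797), beside the 2.31-fold fall of Brca1. The neighbours of Topbp1 and Rad51c, Inhca and Tex14, had under 1 CPM and were not tested. Emc3, which starts 30 bases from Fancd2, was at 154 CPM in RI and 164 CPM in ICI (adjusted p = 0.665). Mrpl27, a mitochondrial ribosome gene that starts 197 bases from Eme1, rose (62.0 CPM in RI and 37.3 CPM in ICI, adjusted p = 0.0290), while Eme1 was at 7.17 and 7.86 CPM. Smc6, of the SMC5/6 complex, starts 85 bases from Gen1 and was at 62.2 CPM in RI and 81.6 CPM in ICI (adjusted p = 0.0753). The difference between a gene and its neighbour was not tested.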
